A study of Homo sapiens with 6 samples.

Results

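The genes described here are 10 members of the receptor pathway of interleukin 4 and interleukin 13 and of its type 2 targets. They were picked by gene symbol for their place in the pathway, with earlier results of these data known, and all 10 were found among the 61806 genes of the table. They are the receptor chains IL4R, IL13RA1 and IL13RA2, the kinase JAK1 with the transcription factor STAT6, the feedback inhibitors SOCS1, SOCS3 and CISH, and the target genes CCL26 and POSTN. RNA was sequenced from BEAS-2B, a line of immortalised epithelial cells of the human bronchus. The libraries comprised 3 of cells treated with 15-KETE and 3 of control cells, each numbered 1 to 3. 15-KETE is a keto derivative of arachidonic acid with electrophilic character, and the labels give neither its dose, nor its time of exposure, nor what the controls received. No added interleukin is named for either group. The labels do not say whether replicates are separate cultures, and p-values cover only the spread of these libraries, which may be technical.

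Interleukin 4 and interleukin 13 are the cytokines that drive type 2 airway inflammation. On epithelial cells both signal through a receptor of IL4R and IL13RA1, whose bound JAK kinases phosphorylate STAT6, and STAT6 then turns on genes such as CCL26. IL13RA2 binds interleukin 13 with high affinity and is best known as a decoy, and the SOCS family, which includes CISH, holds back JAK-STAT signalling after it has begun.

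Of the members, the receptor chains IL4R and IL13RA1, JAK1, STAT6 and SOCS3 were transcribed in these cells, with CISH at a low level. The target members CCL26 and POSTN were at or near 0 counts, as were IL13RA2 and SOCS1. IL13RA1, SOCS3, STAT6, IL4R and JAK1 averaged between 8.88 and 17.4 FPKM over the 6 libraries (FPKM are counts set per kilobase of exonic length and to a common library total). CISH averaged 0.417 FPKM. The other 4 members, IL13RA2, SOCS1, CCL26 and POSTN, were near zero, here meaning under 10 counts in each library, as were 71.6% of all genes in the table. Of 29 other genes listed as interleukin 13 targets 21 were near zero too, while others were abundant, such as SERPINB3 at 63.1 FPKM. No member passed the test of a difference between 15-KETE and control libraries, and in all 6 members that passed the filter on low counts the groups overlapped. In such bulk libraries fewer expressing cells and less RNA per cell cannot be told apart. Coordinates are those of the table, with no build stated. In GENCODE release 29 (GRCh38) all 10 members lie on the same chromosome and 6 have the same start and end.

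The libraries held between 16844781 and 22876808 counts. Control replicate 2 stood apart. Over the 15451 genes tested, how far it lay from the 6-library mean followed exonic length with a Spearman rho of -0.422, against -0.103 to 0.34 in the other libraries (across genes, which are not independent replicates), so long genes had fewer of its counts. The tested members are therefore also given without it. The epithelial keratins KRT7, KRT8 and KRT18 averaged 51.3 to 231 FPKM, while the epithelial genes EPCAM at 0.527 FPKM and CDH1 at 0.692 FPKM were low, and the mesenchymal filament gene VIM averaged 162 FPKM. Of the other epithelial markers KRT14 had 0 counts, TP63 was near zero, and KRT5 and KRT19 averaged 1.5 and 0.49 FPKM. All 8 markers of differentiated airway cells were near zero, SCGB1A1 at 0 counts, with a summed level of 0.163 to 0.31 CPM in 15-KETE and 0.324 to 0.567 CPM in control libraries. The 10 mesenchymal markers summed to 768 to 1061 CPM in 15-KETE and 794 to 1496 CPM in control libraries, with COL3A1 and LUM at 0 counts. VIM made up most of that sum, with 588 to 913 CPM in 15-KETE and 615 to 1259 CPM in control libraries, followed by THY1. Of the 10 markers of blood and endothelial cells 7 were near zero, FCER1A and SIGLEC8 at 0 counts, while the monocyte marker CD14 averaged 5.27 FPKM and made up most of the sum. The 10 summed to 6.45 to 15.6 CPM in 15-KETE and 7.26 to 17.1 CPM in control libraries, highest in replicate 2 of both groups. Summed epithelial markers, nearly all from KRT7, KRT8 and KRT18, were also highest in replicate 2, with 999.6 to 2176 CPM in 15-KETE and 1139 to 3522 CPM in control libraries. Whether these shifts play a part in the values below was not tested.

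**Figure D1:**
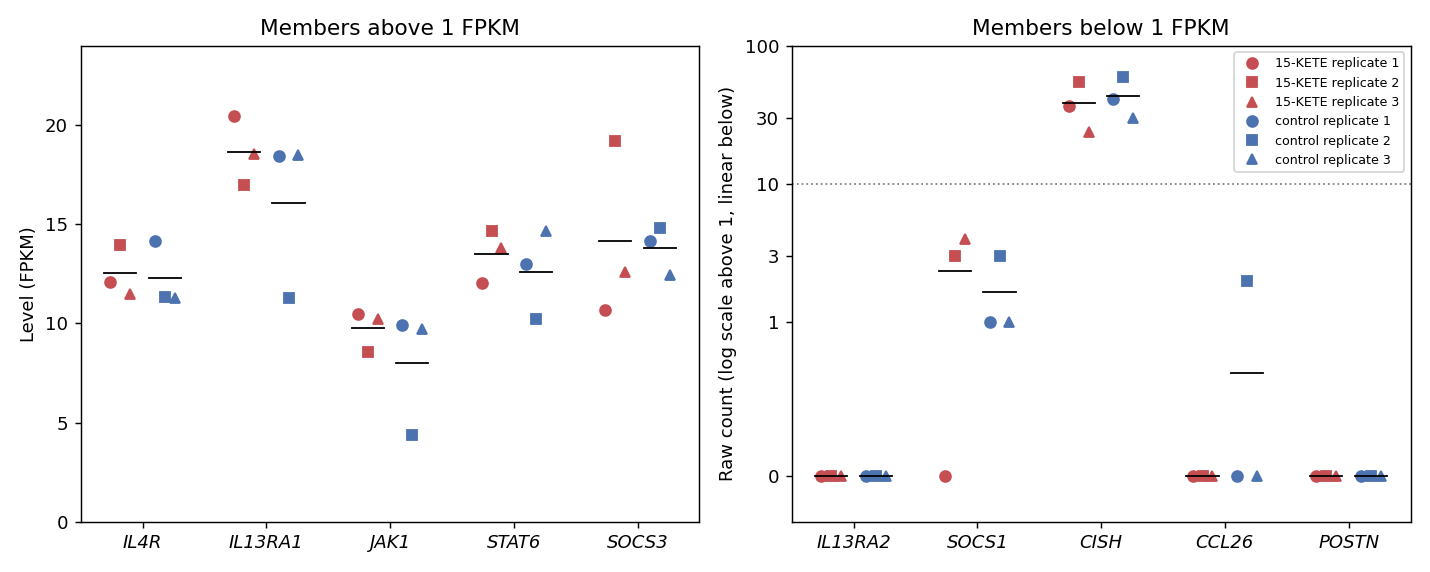
Levels of the 10 members in each library, as FPKM (left, linear axis from 0) or as raw counts (right, log axis above 1), with 15-KETE in red left of control in blue, a symbol per replicate number and a bar at the group mean. The dotted line marks 10 counts; IL13RA2 and POSTN lie at 0 in all 6 libraries, and CISH lies between 24 and 60 counts.

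Among the receptor chains, IL4R (ENSG00000077238, chromosome 16, 27313668 to 27364778), the chain that binds interleukin 4, had 12.1, 13.96 and 11.51 FPKM in 15-KETE replicates 1 to 3, against 14.18, 11.35 and 11.29 FPKM in control replicates 1 to 3. The ranges of the groups overlapped, and the highest library was control replicate 1. On the scale used for testing, CPM (counts set to a common library total after scaling), IL4R averaged 71.97 ± 9.82 CPM in 15-KETE and 74.4 ± 9.53 CPM in control libraries (SD, n = 3 each). Its log2 fold change was -0.047 ± 0.24 (SE; edgeR adjusted p = 0.9996), with a 95% interval that runs from 0.662-fold to 1.41-fold. Its sign depended on the scaling, and the value was 0.029 with library totals alone and -0.0045 without control replicate 2.

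IL13RA1 (ENSG00000131724, chromosome X, 118727133 to 118794535), which completes the epithelial receptor and carries the interleukin 13 site, had 20.47, 16.96 and 18.55 FPKM in 15-KETE replicates 1 to 3, against 18.43, 11.26 and 18.49 FPKM in control replicates 1 to 3. Control replicate 2 was the lowest library, and the other 5 overlapped between groups. The means were 84.4 ± 6.11 CPM in 15-KETE and 75.7 ± 12.2 CPM in control libraries (SD, n = 3 each), a log2 fold change of 0.16 ± 0.24 (SE; edgeR adjusted p = 0.9996; 95% interval 0.765-fold to 1.63-fold). Without control replicate 2 it was 0.031.

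IL13RA2 (ENSG00000123496, chromosome X, 115003975 to 115019977), the decoy chain, had 0 counts in each of the 3 15-KETE and each of the 3 control libraries, out of 115142485 counts in all. A count of 0 in a library allows up to 3 counts, which for its exonic length of 1626 bases is 0.0807 to 0.11 FPKM depending on the library. Set per length, IL13RA1 was 177 to 210-fold above that floor of IL13RA2 in 15-KETE libraries and 133 to 182-fold above it in control libraries. The floor and the interval cover counting error only. With no counts for IL13RA2, the planned test of its ratio to IL13RA1 between groups had no value.

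The ratio of the chains of the epithelial receptor, IL13RA1 to IL4R per length, was taken in its place after the values were seen, since a ratio within a library does not depend on library scaling. It was 1.69, 1.21 and 1.61 in 15-KETE replicates 1 to 3, against 1.3, 0.992 and 1.64 in control replicates 1 to 3. The ratios overlapped between groups (difference of 0.22 on the log2 scale, exact two-sided permutation test, p = 0.6, adjusted p = 0.6 over 2 ratios, n = 3 each, smallest possible p = 0.1). Within numbers the 15-KETE library had the higher ratio in 2 of 3 pairs (exact sign-flip permutation test, p = 0.5). IL2RG, which pairs with IL4R in the receptor of blood cells and was singled out after its values were seen, had 2 counts over the 3 15-KETE libraries and 0 over the 3 control libraries.

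JAK1 (ENSG00000162434, chromosome 1, 64833223 to 65067754), the kinase bound to IL4R, had 10.48, 8.58 and 10.22 FPKM in 15-KETE replicates 1 to 3, against 9.92, 4.36 and 9.71 FPKM in control replicates 1 to 3. One library, control replicate 2, was far below the others, and 15-KETE replicate 2 was the lowest of its own group. Means were 125 ± 9.51 CPM in 15-KETE and 106 ± 33.0 CPM in control libraries (SD, n = 3 each), a log2 fold change of 0.24 ± 0.29 (SE; edgeR adjusted p = 0.9996; 95% interval 0.753-fold to 1.86-fold). JAK1 has the longest exons of the 10 members, 13174 bases, and control replicate 2 is the library with fewest counts on long genes. The log2 fold change of JAK1 was 0.0069 without control replicate 2 and 0.11 with a correction for exonic length. IL13RA1, with 4650 bases, was also lowest in control replicate 2. Whether exonic length plays a part in these values was not tested. JAK1 just overlaps RAVER2, a gene of the opposite strand, at its 3′ end.

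STAT6 (ENSG00000166888, chromosome 12, 57095408 to 57132139), the transcription factor of the pathway, had 12.02, 14.67 and 13.83 FPKM in 15-KETE replicates 1 to 3, against 12.99, 10.21 and 14.66 FPKM in control replicates 1 to 3. Its highest values in the 2 groups were nearly equal. STAT6 averaged 96.2 ± 12.1 CPM in 15-KETE and 94.0 ± 7.45 CPM in control libraries (SD, n = 3 each), a log2 fold change of 0.034 ± 0.23 (SE; edgeR adjusted p = 0.9996; 95% interval 0.711-fold to 1.47-fold), and -0.047 with the length correction. Without control replicate 2 it was -0.012. The gene overlaps LRP1 and NAB2 on the opposite strand. Reads in the shared stretches can be told apart only by strand, and the strand setting of the counts is not given. STAT6 to JAK1 per length was 1.15, 1.71 and 1.35 in 15-KETE replicates 1 to 3, against 1.31, 2.34 and 1.51 in control replicates 1 to 3. Replicate 2 was highest in both groups, and the 15-KETE library had the lower ratio in each of the 3 replicate numbers. The groups overlapped (difference of -0.27 on the log2 scale, exact two-sided permutation test, p = 0.5, adjusted p = 0.6 over 2 ratios, n = 3 each). Within numbers, an exact sign-flip permutation test gave p = 0.25, the smallest that 3 pairs allow. This ratio too was taken after the values were seen, and its difference was -0.023 without control replicate 2.

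Of the feedback inhibitors, SOCS3 (ENSG00000184557, chromosome 17, 78356778 to 78360077), best known for restraining signals of the interleukin 6 family, was the abundant one. It had 10.67, 19.2 and 12.6 FPKM in 15-KETE replicates 1 to 3, against 14.14, 14.83 and 12.42 FPKM in control replicates 1 to 3. Both the highest and the lowest library were 15-KETE libraries. Its mean was 38.0 ± 13.3 CPM in 15-KETE and 39.2 ± 7.76 CPM in control libraries (SD, n = 3 each), a log2 fold change of -0.047 ± 0.31 (SE; edgeR adjusted p = 0.9996; 95% interval 0.598-fold to 1.57-fold), which was 0.038 with library totals alone, 0.082 with the length correction and 0.12 without control replicate 2.

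CISH (ENSG00000114737, chromosome 3, 50606489 to 50611774), an inhibitor that STAT5 and STAT6 signals induce in blood cells, was counted 37, 55 and 24 times in 15-KETE replicates 1 to 3, against 41, 60 and 30 times in control replicates 1 to 3. In each replicate number the 15-KETE library was the lower one, and the groups still overlapped, with replicate 2 high and replicate 3 low in both. CISH averaged 1.91 ± 0.57 CPM in 15-KETE and 2.38 ± 0.787 CPM in control libraries (SD, n = 3 each). Its log2 fold change was -0.31 ± 0.41 (SE; edgeR adjusted p = 0.9996), with a 95% interval of 0.423-fold to 1.53-fold that does not exclude a halving. In the fit blocked by replicate number the interval of CISH was 0.516-fold to 1.26-fold, its lower end just above a halving. Without control replicate 2 the log2 fold change was -0.022. The gene overlaps MAPKAPK3, which has 5795 counts over the 6 libraries, on the opposite strand, against 247 for CISH. Whether reads in the shared stretch were told apart by strand is not known.

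SOCS1 (ENSG00000185338, chromosome 16, 11254417 to 11256204), the family member most closely tied to interferon and interleukin 4 feedback, had 0, 3 and 4 counts in 15-KETE replicates 1 to 3, against 1, 3 and 1 counts in control replicates 1 to 3. That makes 7 counts in the 15-KETE group (exact Poisson 95% interval 2.81 to 14.4) and 5 in the control group (1.62 to 11.7), intervals that overlap and cover counting error only. It lies inside RMI2, a gene of the opposite strand with 2360 counts. SOCS1 did not pass the filter on low counts.

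The target genes among the members were at or near 0 counts in both groups. CCL26 (ENSG00000006606, chromosome 7, 75769533 to 75789896), the eosinophil attractant eotaxin-3, had 0 counts in all 3 15-KETE libraries, and 0, 2 and 0 counts in control replicates 1 to 3. The floor of 3 counts corresponds to 0.187 to 0.253 FPKM for this short transcript. POSTN (ENSG00000133110, chromosome 13, 37562583 to 37598844), which encodes the matrix protein periostin and is read as a marker of interleukin 13 exposure in airway epithelium, had 0 counts in every 15-KETE and every control library. Its floor of 3 counts is 0.024 to 0.0326 FPKM. A difference between groups below these floors was not detectable at this depth.

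STAT proteins bind DNA as dimers at a pair of facing triplets, written TTCNNNGAA for most of the family. STAT6 prefers the same TTC and GAA with 4 bases between them in place of 3, and either motif is its own reverse complement, so a match covers both strands. The windows searched reach from 250 bases before to 50 bases after a gene start in RefSeq (GRCh38.p14), and 9 of the 10 members had at least 1 of them, 12 windows in all. The 4-base form was in 0 of the 12 windows and in 6.44% of all 35116 windows. TTCNNNGAA was in 2 of the 12 windows, those of CISH and POSTN, and in 7.66% of all windows. The CISH window held 4 matches, at -241, -230, -129 and -112 bases from the gene start, and 0.0199% of all windows held 4 or more. POSTN held 1, at -92. These 2 windows are shown because only they held a match. The windows of the abundant members IL13RA1, SOCS3, STAT6, IL4R and JAK1 held none, and whether matches go with level was not tested. The 250 bases before each start follow, on the minus strand at chr3:50611775-50612024 for CISH and chr13:37598769-37599018 for POSTN, with the matches in capitals.
CISH: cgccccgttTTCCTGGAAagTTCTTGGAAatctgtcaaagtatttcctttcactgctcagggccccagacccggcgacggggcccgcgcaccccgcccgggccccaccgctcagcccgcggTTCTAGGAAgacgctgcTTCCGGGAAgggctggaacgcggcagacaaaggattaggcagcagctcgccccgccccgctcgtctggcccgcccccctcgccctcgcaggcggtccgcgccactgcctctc
POSTN: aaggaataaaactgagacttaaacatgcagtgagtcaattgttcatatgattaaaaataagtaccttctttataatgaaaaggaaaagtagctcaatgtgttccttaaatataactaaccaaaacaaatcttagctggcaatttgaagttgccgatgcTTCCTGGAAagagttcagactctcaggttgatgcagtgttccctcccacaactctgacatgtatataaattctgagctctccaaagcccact
A match describes letters and not binding, and no match says only that the letters are not in that window.

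Ordered by level per length over the 6 libraries, the members ran IL13RA1 (17.4 ± 3.19 FPKM), SOCS3 (14.0 ± 2.94), STAT6 (13.1 ± 1.73), IL4R (12.4 ± 1.33), JAK1 (8.88 ± 2.31) and CISH (0.417 ± 0.0963), all as SD over n = 6. Neighbours among the first 4 did not differ beyond their spread. IL13RA1 was above SOCS3 in 4 libraries, and SOCS3 above STAT6 and STAT6 above IL4R in 3 each. IL4R was above JAK1, and JAK1 above CISH, in all 6 libraries and with no overlap of their ranges. The place of JAK1 depends on the exonic length used, 13174 bases against 5884 for IL4R. In counts not set per length JAK1 led the members, with 13202 over the 6 libraries against 8433 for IL4R. SOCS1 (0.0567 FPKM) and CCL26 (0.0217 FPKM) overlapped, and IL13RA2 and POSTN shared the bottom at 0. By mean FPKM the 5 abundant members stood above 91.9% to 95.7% of all genes in the table, and CISH above 75.9%.

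**Figure D2:**
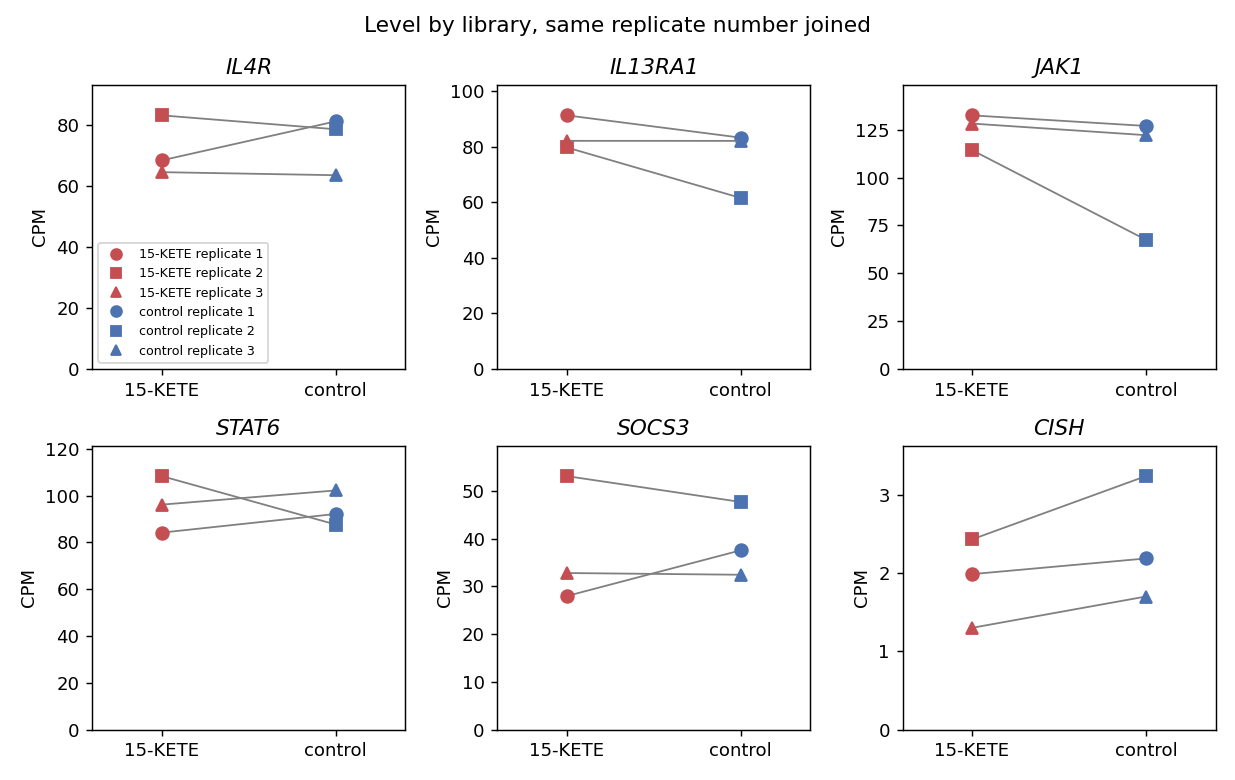
CPM of the 6 tested members in each library, on linear axes from 0, with 15-KETE left of control and libraries of the same replicate number joined by a line. Replicate 2 is the lowest of its group for JAK1 and IL13RA1 and the highest for SOCS3 and CISH, in both groups.

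The spread within a group followed the replicate number in several members. JAK1 and IL13RA1 were lowest in replicate 2 of both groups, and SOCS3 and CISH were highest there. The highest JAK1 level was 1.16 times the lowest within 15-KETE libraries and 1.88 times within control libraries. For SOCS3 the same ratios were 1.897 in 15-KETE and 1.47 in control libraries, and for CISH they were 1.87 in 15-KETE and 1.904 in control libraries. IL4R, with 1.29 in 15-KETE and 1.28 in control libraries, and STAT6, with 1.29 in 15-KETE and 1.17 in control libraries, spread about as much in either group. IL4R was lowest in replicate 3 of both groups, and STAT6 followed no common number.

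Between libraries of one number, JAK1 differed by 0.062, 0.76 and 0.070 (15-KETE minus control, log2 CPM, replicates 1 to 3), so nearly all of its difference came from replicate 2. The IL13RA1 differences were 0.13, 0.37 and 0.00030, and those of STAT6 were -0.13, 0.31 and -0.088. SOCS3 gave -0.42, 0.16 and 0.016, and IL4R -0.25, 0.081 and 0.023. CISH gave -0.14, -0.41 and -0.39, the only tested member with 3 differences below 0, while JAK1 and IL13RA1 had 3 above 0. The share of all genes with 3 differences of the same sign was not computed. In replicate 2 the 15-KETE library was higher for 5 of the 6 tested members, in replicate 1 for 2 and in replicate 3 for 4. Over all 15451 genes the median difference was 0.00070, -0.013 and 0.0019, with an SD of 0.293, 0.606 and 0.228, so replicate 2 was the pair that differed most in general.

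**Figure D3:**
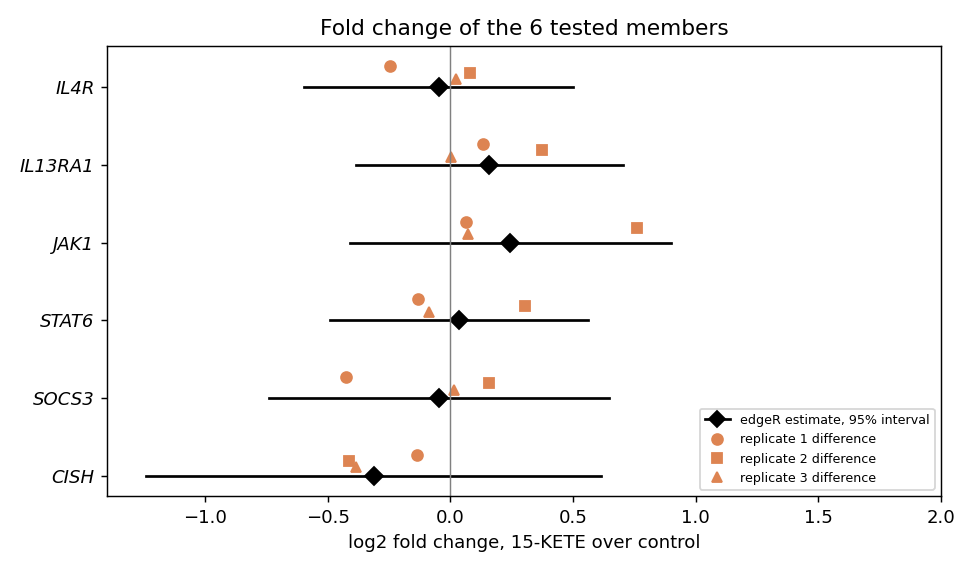
Log2 fold change of 15-KETE over control for the 6 tested members, with the edgeR estimate as a black diamond, its 95% interval as a line and the 3 same-numbered differences in orange. Every interval includes 0, and the replicate 2 difference of JAK1, at 0.76, stands apart from its other 2.

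Of the 10 members 6 passed the filter on low counts, and edgeR called 0 of the 6, against a background of 0% (0 of 15451 genes tested). None of the 6 had an unadjusted p below 0.05, which 0.162% of all genes had, and DESeq2 and limma-voom also called 0 members and 0 genes (31 and 32 genes with an unadjusted p below 0.05). In the fit blocked by replicate number these shares were 0 of the 6 members and 4.71% of all genes. The groups were apart in CPM for 0 of the 6 and for 2.3% of all genes tested (1.22% higher and 1.07% lower in 15-KETE). The log2 fold changes were above 0 for 3 members and below 0 for 3, with a median of -0.0066, against 49.8% above 0 and a median of -0.0018 over all genes tested. The 95% interval lay within 2-fold in either direction for 5 of the 6, all but CISH, and for 50.7% of all genes. A change of 2-fold or more is thus outside the interval of IL4R, IL13RA1, JAK1, STAT6 and SOCS3, while the smaller changes inside each gene's interval are not excluded.

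Other genes of the pathway were taken from 5 lists of 75 genes, of which 42 were tested. edgeR called 0 of the 42, against 0% of all genes tested, and 0 had an unadjusted p below 0.05, against 0.162%. With the replicate block 1 of the 42, GAB1, had an unadjusted p below 0.05, against 4.71% of all genes tested. Of the 7 type 2 cytokines and epithelial alarmins 6 were near zero, against 71.6% of all genes in the table, and none was tested. TSLP, an alarmin of epithelial cells, had 31, 8 and 7 counts in 15-KETE replicates 1 to 3, against 13, 12 and 7 counts in control replicates 1 to 3. Only 15-KETE replicate 1 was apart. IL5, a cytokine of lymphocytes, had 6 counts over the 15-KETE libraries and 0 over the control libraries. No library had more than 3, and a difference at such counts was not tested.

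Among 8 other receptor chains 4 were tested, with a median log2 fold change of 0.042. The most abundant were IL1RAP (31.3 ± 6.37 CPM in 15-KETE and 32.8 ± 8.29 CPM in control libraries), a shared chain of the interleukin 1 family, and IL1RL1 (11.9 ± 1.87 and 10.7 ± 1.5 CPM in 15-KETE and in control libraries), the receptor of interleukin 33 (SD, n = 3 each). IL17RB, a chain of the interleukin 25 receptor, had 3.81, 3.14 and 2.87 CPM in 15-KETE replicates 1 to 3, against 2.67, 2.05 and 2.78 CPM in control replicates 1 to 3. The groups did not overlap, the lowest 15-KETE library lying just above the highest control library. It was 1 of the 42 tested genes without overlap, near the 2.3% of all genes, and its log2 fold change was 0.39 (edgeR adjusted p = 0.9996; 95% interval -0.36 to 1.13 on the log2 scale).

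All 15 other kinases, STATs and adaptors were tested, 12 above 0 and 3 below, with a median log2 fold change of 0.13 (0.0083 without control replicate 2, 8 above 0 and 7 below). The adaptors SHC1 (424 ± 116 CPM in 15-KETE and 375 ± 27.8 CPM in control libraries) and GRB2 (251 ± 42.6 and 261 ± 56.5 CPM in 15-KETE and in control libraries) were the most abundant per length (SD, n = 3 each). GAB1, a docking protein and the list's gene of smallest p, had 30.9, 21.1 and 38.6 CPM in 15-KETE replicates 1 to 3, against 23.0, 11.8 and 35.6 CPM in control replicates 1 to 3. Every 15-KETE library was above its same-numbered control and the groups overlapped (log2 fold change 0.36, edgeR adjusted p = 0.9996). TYK2, the kinase that IL13RA1 binds and a gene singled out after its values were seen, had 99.6 ± 5.46 CPM in 15-KETE and 87.2 ± 10.3 CPM in control libraries (SD, n = 3 each).

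All 16 other negative regulators were tested too, 12 above 0 and 4 below, with a median of 0.079 (-0.079 without control replicate 2, 3 above 0 and 13 below). The phosphatases PTPN11 (385 ± 90.9 CPM in 15-KETE and 343 ± 122.8 CPM in control libraries) and PTPN1 (179 ± 19.1 and 163 ± 31.1 CPM in 15-KETE and in control libraries) were the most abundant per length (SD, n = 3 each). SOCS2, an inhibitor of growth hormone signals and the gene of smallest p, had 4.08, 4.6 and 3.63 CPM in 15-KETE replicates 1 to 3, against 5.07, 6.37 and 4.2 CPM in control replicates 1 to 3. Like CISH it was lower in the 15-KETE library of each number, with overlapping groups (log2 fold change -0.34, edgeR adjusted p = 0.9996).

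Of 29 other genes listed here as targets of interleukin 13, 21 were near zero, 7 of them at 0 counts in all 6 libraries, against 71.6% of all genes in the table near zero. The list also holds genes better known from other signals, such as FKBP5. From it 7 genes were tested, with a median of 0.015 (-0.15 without control replicate 2, 2 above 0 and 5 below). The most abundant of the list were SERPINB3, a serpin of squamous epithelium, with 103 ± 35.6 CPM in 15-KETE and 109.6 ± 42.6 CPM in control libraries, whose reads can be shared with its near copy SERPINB4, and FKBP5, a chaperone best known as a glucocorticoid target, with 523 ± 54.0 CPM in 15-KETE and 479.5 ± 93.3 CPM in control libraries (SD, n = 3 each). Neither passed the test (edgeR adjusted p = 0.9996 for each).

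**Figure D4:**
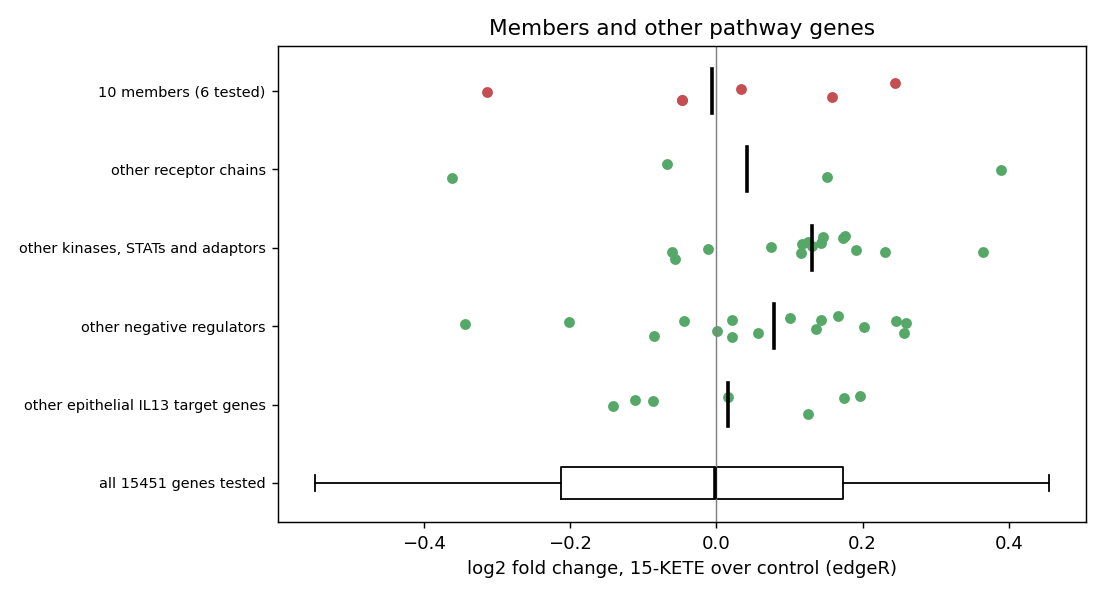
Log2 fold changes of 15-KETE over control for the 6 tested members (red) and the 42 tested genes of 4 other pathway lists (green), a point per gene with a bar at the list's median, above a box of all 15451 genes (quartiles, whiskers from the 5th to the 95th percentile). The points lie between -0.36 and 0.39 and the kinase list has its median at 0.13.

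The gene most like each tested member over the 6 libraries was taken as the one with the smallest root mean square difference in mean-centred log2 CPM. For JAK1 it was the importin TNPO3 (0.0330), for IL13RA1 LARP4B (0.0146), for IL4R the protease CAPN1 (0.0297) and for STAT6 ASCC2 (0.0299). SOCS3 was nearest to the lipid transporter MFSD2A (0.0583) and CISH to the noncoding LINC02979 (0.0314). These distances are small beside the members' own ranges of 0.36 to 1.05, and with 15451 candidates and 6 libraries they describe shape alone.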

How the data were processed

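Polyadenylated RNA of 6 BEAS-2B libraries was prepared with a column kit and a SMARTer mRNA library kit, per the labels' protocols. Among the tools in the submitters' processing notes are HISAT2 2.2.1 and HTSeq 0.6.1, with no roles given. Genome build and strand setting are not given in the sources used here, and coordinates are those of the deposited table, counted from 1. The raw counts that the authors deposited are whole numbers per gene and library. Their deposited FPKM values lay within 0.01 of a value recomputed from count, exonic length and library total for 100% of entries.

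Counts were tested with edgeR 4.0.16 in R 4.3.3 (filterByExpr, TMM scaling, robust quasi-likelihood test over all 6 libraries), with Benjamini-Hochberg adjustment over 15451 genes and a threshold of 0.05. CPM use the same scaling. Alternatives were the replicate number as a block, DESeq2 1.42.0, limma-voom and limma-trend (limma 3.58.1), other scalings and filters, a length correction, and libraries left out. Scripts were tested on simulated data. Members, lists and alternatives were chosen with earlier results of these data known, and the ratios and list medians under alternatives after seeing the values. The genes named are all 10 members and, per list, the 2 of highest FPKM and the 1 of smallest p.

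Same-numbered libraries deviated together from their group means (r of 0.57, 0.646 and 0.722 for numbers 1, 2 and 3, and of -0.564 to -0.0917 across numbers). The numbers therefore count as pairs, on the titles and this check alone, while the values printed come from the fit without the block unless said otherwise. That fit leaves the pairing out, and its SE was larger than with the block for every tested member, such as 0.29 against 0.18 for JAK1. Every pair of libraries differed by more than sampling noise. The closest pair crossed the groups, 15-KETE replicate 3 and control replicate 3, with a per-gene chi-square of 2.39. Next came 15-KETE replicate 1 and control replicate 1, at 10.3. Pairs within a group ran from 34.6 to 245. The replicate 2 libraries of 15-KETE and control, at 113, were not closer than most of these.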

Additional observations from a re-analysis of the deposited data

How the results depend on the processing

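Pairing the libraries changed no call, since edgeR with a replicate block called 0 genes and 0 members. Its log2 fold changes were 0.30 for JAK1 (edgeR adjusted p = 0.695), 0.17 for IL13RA1, 0.029 for STAT6, -0.048 for IL4R, -0.082 for SOCS3 and -0.31 for CISH, and all 6 members then had 95% intervals within 2-fold, as did 78.5% of all genes. That test called 1 gene when both replicate 1 libraries were left out and 12 genes when both replicate 3 libraries were, 0 of them members. IL13RA1 (0.031 to 0.27), JAK1 (0.0069 to 0.43) and CISH (-0.53 to -0.022) kept their sign in all 19 alternatives, and no alternative called a member. IL4R reversed to 0.029 with library totals alone, to 0.030 on log2(FPKM + 1) and to 0.066 without both replicate 1 libraries. SOCS3 reversed to 0.038 with library totals alone, 0.082 with the length correction, 0.046 with block and length correction and 0.10 without both replicate 1 libraries. STAT6 reversed to -0.047 with the length correction, -0.059 with block and length correction and -0.12 without both replicate 2 libraries. With single libraries left out, IL4R ran from -0.17 to 0.034, STAT6 from -0.063 to 0.13 and SOCS3 from -0.37 to 0.14. The median over the 6 tested members was 0.017 with the length correction and 0.0012 without control replicate 2. The list medians that crossed 0 were other receptor chains with the length correction (-0.050), and other negative regulators (-0.079) and other interleukin 13 targets (-0.15) without control replicate 2. The cause of these reversals was not tested. The ratio differences kept their sign without any single library (0.031 to 0.39 for IL13RA1 to IL4R, -0.44 to -0.023 for STAT6 to JAK1). The planned ratio of IL13RA2 to IL13RA1 could not be computed. With library totals alone the median of all genes was 0.072. Depth limits the 4 near-zero members, which did not pass the filter on low counts.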
